A study of Arvicanthis niloticus with 7 samples.

Results

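*Ttr*, *Rnase4*, *Serpina1b* and *Serpina1d* encode proteins that hepatocytes release into the blood. They were singled out because their probes were brighter with palm fruit juice (PFJ) on these same arrays, so the contrast of PFJ with control is described for them and not tested. All 6 probes that the platform annotation assigns to these 4 symbols, of 16110 symbols in all, were taken, out of 25697 probes on the array, and each was read on each of the 7 arrays. *Ttr* and *Serpina1d* have 1 probe each, while *Rnase4* and *Serpina1b* have 2 each. The RNA was labelled as liver from young male Nile rats (NRs, *Arvicanthis niloticus*), grass rats that become diabetic on carbohydrate-rich food. From 3 weeks of age the rats of both groups were fed for 4 weeks on a food that drew 70% of its energy from carbohydrate, 10% from fat and 20% from protein. The control group (4 arrays) ate this food alone, whereas the PFJ group (3 arrays) had PFJ mixed into it at 5.4 g of gallic acid equivalents per kg of diet. The methods state that RNA samples were picked by integrity and that outlier samples were removed by clustering, and they do not name the rat behind each array, so the spread given here is that between arrays.

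The liver makes most of the carrier proteins and protease inhibitors of plasma. Transthyretin, the product of *Ttr*, carries thyroid hormone and binds the retinol-binding protein encoded by *Rbp4*. *Rnase4* encodes a small secreted ribonuclease of the RNase A family, and in the mouse it shares its promoters and leading exons with *Ang*, which encodes angiogenin, another member of that family. Alpha-1-antitrypsin, a serpin, blocks neutrophil elastase and related serine proteases, and the mouse carries several near-identical copies of its gene, among them *Serpina1b* and *Serpina1d*. Of the 4 symbols, 2 (*Ttr* and *Rnase4*) matched a symbol in the RefSeq gene table of the NR assembly, where *Ang* lies within the span of *Rnase4*.

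The probes were designed on mouse transcripts, and a mismatch between the NR and mouse transcripts can weaken or abolish the signal of a probe. A probe was called detected at a detection p under 0.01 against the negative controls of its array, and between 4689 and 5137 probes met this on an array. The background level implied by the detection p-values lay between 132.7 and 150.2 signal units. Signals were corrected for background, quantile normalised and are given as log2 values, on which the lowest detected probe of an array lay between 6.22 and 6.52. Control replicates 3 and 4 stood apart. Across the 3734 genes kept for testing, which are not independent replicates, the correlation between them was 0.986, that with the other 5 arrays ran from 0.759 to 0.778, and that among those 5 from 0.955 to 0.979. Of 12 hepatocyte markers on the array, 3 were detected on each of control replicates 3 and 4 and 8 on each of the other 5. Their summed normalised signal was 136353, 126993, 4968 and 4266 on control replicates 1 to 4 and 146642 to 171776 in the PFJ group. *Alb*, *Tat*, *Fgb* and *Ttpa* were undetected on every array. Of 14 kidney tubule markers, 8 were detected on control replicates 3 and 4 and 3 on each other array, with summed signals of 186449 and 186668 against 5918 to 7719. The other tubule markers of the list, *Aqp2*, *Slc22a6*, *Slc22a8*, *Kap*, *Slc5a2* and *Lrp2*, were undetected on all arrays. These marker values go against the liver label of control replicates 3 and 4, so what a comparison with all 4 controls measures is uncertain. Comparisons below are therefore given against all 4 controls and against control replicates 1 and 2. In whole tissue, fewer cells of a type and less RNA per cell cannot be told apart.

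*Ttr* gave a signal above background in the PFJ group alone. Its probe (2680113) read 236.6, 325.5 and 641.3 signal units on PFJ replicates 1, 2 and 3, with detection p-values of 0.001253, 0 and 0. On control replicates 1 to 4 it read 160.2, 160.5, 149.3 and 158.1, with detection p-values of 0.09649, 0.1103, 0.5301 and 0.08145. The groups did not overlap, and the control arrays with high and with low hepatocyte markers alike left the probe undetected. On the log2 scale the PFJ values were 6.93, 7.70 and 9.46, a mean of 8.03 ± 1.30 (SD, n = 3), and the control values were 5.42, 5.36, 4.89 and 5.40, a mean of 5.26 ± 0.25 (SD, n = 4). Because the probe was undetected on every control array, only a lower bound of the fold can be given, from the PFJ mean against the higher of the lowest detected value and the value of the probe on each control array. The signal was at least 3.245-fold higher with PFJ, and at least 3.173-fold higher against control replicates 1 and 2. These bounds are for the PFJ mean, which PFJ replicate 3 raises, and not for each PFJ array. Without PFJ replicate 3 the difference of normalised values against all controls fell from 2.76 to 2.05. The dimmest PFJ array lay 1.51 log2 units above the brightest control array.

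**Figure D1:**
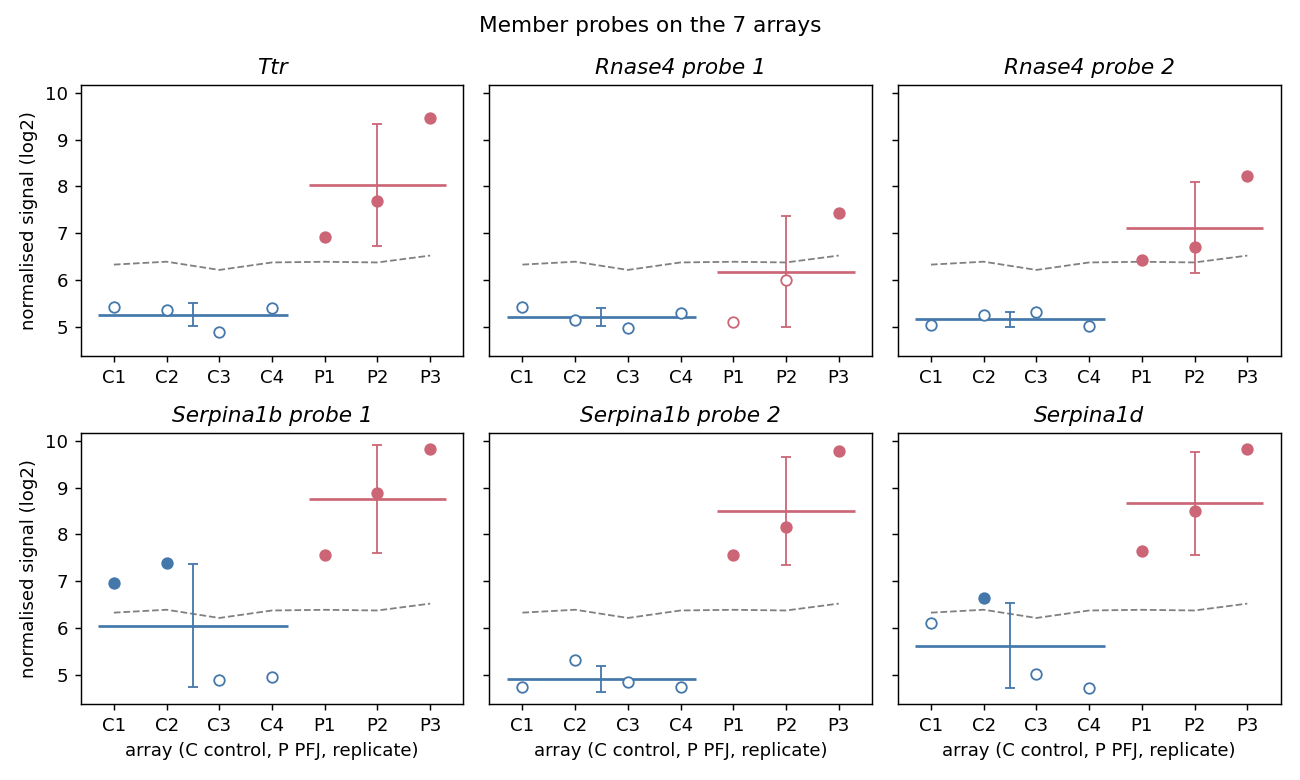
Normalised signal (log2, vertical axis) of each member probe on each array (C, control; P, PFJ; the number is the replicate). Filled points were detected and open points were not, the grey dashed line joins the lowest detected value of each array, and horizontal lines with bars are group means ± SD (n = 4 and 3). Each probe is dimmest on P1 and brightest on P3 among the PFJ arrays, and *Serpina1b* probe 1 is the only one detected on 2 control arrays.

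The ribonuclease gene *Rnase4* was read by a pair of probes annotated to different transcript records, and they differed in how many PFJ arrays detected them. Probe 2 (5810398) read 204.1, 226.6 and 353.6 signal units on PFJ replicates 1 to 3 and was detected on all 3, with detection p-values of 0.006266, 0 and 0, the first of them close to the limit of 0.01. On control replicates 1 to 4 it read 142.5, 156.8, 175.4 and 139.7 and was undetected. Its log2 values of 6.43, 6.71 and 8.22 in the PFJ group lay above all control values, which ran from 5.02 to 5.32. On the PFJ mean it was at least 1.731-fold higher, and at least 1.692-fold higher against control replicates 1 and 2. PFJ replicates 1 and 2 lay close to the lowest detected values of the control arrays, 6.22 to 6.39. These bounds therefore rest largely on PFJ replicate 3.

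Probe 1 of *Rnase4* (5550369) was detected on PFJ replicate 3 alone. It read 147.4, 186.9 and 258.1 signal units in the PFJ group and 160.4, 152.4, 154.7 and 153.9 on the control arrays. On the log2 scale PFJ replicate 1, at 5.11, lay below control replicates 1, 2 and 4 and above control replicate 3 (5.42, 5.16, 5.31 and 4.97), so the groups overlapped. The PFJ mean was 6.18 ± 1.18 (SD, n = 3) and the control mean 5.21 ± 0.20 (SD, n = 4) on the log2 scale, a difference of 0.97 that is smaller than the spread of the PFJ arrays, and no bound of a fold can be given. Without PFJ replicate 3 the difference was 0.34, and without PFJ replicate 1 it was 1.5. The probe was left out of the genes tested, since it was detected on fewer than 3 arrays.

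*Serpina1b* was read by a pair of probes annotated to the same transcript record, and only one of them was detected in controls. Probe 1 (1430253) read 299.4, 597.7 and 810.1 signal units on PFJ replicates 1 to 3, and 243.9, 271.1, 150.5 and 136.6 on control replicates 1 to 4. Detection was reached on each PFJ array and in 2 of 4 controls. On the log2 scale it gave 7.55, 8.90 and 9.83 with PFJ, against 6.97 and 7.39 for the control replicates 1 and 2 and only 4.90 and 4.96 for 3 and 4. PFJ replicate 1 exceeded control replicate 2 by 0.16 only. Against control replicates 1 and 2, where the probe was detected, the difference of the means was 1.58, or 2.987-fold. Against all 4 controls the normalised values differed by 2.70, which rests in part on the values at background of control replicates 3 and 4 and is not given as a fold.

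Probe 2 of *Serpina1b* (2120152) read 299.6, 398.8 and 785.1 signal units in the PFJ group and was detected on each of these arrays. On control replicates 1 to 4 it read 123.8, 159.4, 147.1 and 123.2 and was undetected, with detection p-values from 0.1278 to 0.7832. Its log2 values were 7.55, 8.15 and 9.78 with PFJ and 4.74 to 5.33 in controls. On the PFJ mean it was at least 4.492-fold higher, and at least 4.392-fold higher against control replicates 1 and 2. On control replicates 1 and 2 the probes of *Serpina1b* therefore differed in detection, while on the PFJ arrays both were detected.

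*Serpina1d* had 1 probe (2690364), which read 311.5, 484.6 and 808.1 signal units on PFJ replicates 1 to 3. On control replicates 1 to 4 it read 188.7, 212.3, 157.9 and 121.9, and only control replicate 2 passed detection, with replicate 1 just short of it. The detection p-values of control replicates 2 and 1 were 0.005013 and 0.0188. The log2 values of 7.66, 8.51 and 9.83 in the PFJ group lay above the control values of 6.12, 6.64, 5.02 and 4.73. The PFJ mean was 8.66 ± 1.09 (SD, n = 3) and the control mean 5.63 ± 0.90 (SD, n = 4). The difference of the normalised values was 3.04 against all 4 controls and 2.28 against control replicates 1 and 2. As the probe was detected on 1 of 4 control arrays, these differences rest in part on values at background and are not given as folds.

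The hepatocyte markers moved with the control values of part of these probes. The mean log2 value of control replicates 1 and 2, followed by that of replicates 3 and 4, was 7.18 and 4.93 for *Serpina1b* probe 1 and 6.38 and 4.87 for *Serpina1d*. It was 5.39 and 5.14 for *Ttr*, 5.15 and 5.17 for *Rnase4* probe 2, and 5.03 and 4.80 for *Serpina1b* probe 2, which were undetected on both pairs of arrays. For these 3 probes the lower bounds of the fold against control replicates 1 and 2, given above, stand in place of a difference. Among kept genes, 3.45% had every PFJ array above every control array, and 7.47% had every PFJ array above control replicates 1 and 2. By both counts 5 of the 6 member probes are of this kind, which their choice on this contrast makes likely, so nothing is read from it.

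The PFJ arrays fell in the same order for all 6 member probes. PFJ replicate 1 was the lowest, replicate 2 lay between and replicate 3 was the highest. Over all kept genes, 14.9% had this order. The difference of PFJ replicate 3 from replicate 1 was 2.53 for *Ttr*, 2.33 and 1.79 for *Rnase4* probes 1 and 2, 2.28 and 2.23 for *Serpina1b* probes 1 and 2, and 2.17 for *Serpina1d*, on the log2 scale. *Rnase4* probe 1 was undetected on PFJ replicates 1 and 2, so that its range and the order of these 2 arrays are read from values at background. Across kept genes the 5th and 95th percentiles were -0.94 and 0.81, with a median of -0.00058. In the values normalised by the authors, the signal of replicate 3 was 6.112 times that of replicate 1 for *Ttr*, 3.798 times for *Rnase4* probe 2, 5.035 and 4.841 times for *Serpina1b*, and 4.672 times for *Serpina1d*. The step from replicate 1 to replicate 2 varied more, from 0.28 for *Rnase4* probe 2 to 1.34 for *Serpina1b* probe 1. As each array is a single sample, the order has no test. The arrays also differ in depth of detection, with 4867, 4887 and 4689 probes detected on PFJ replicates 1 to 3, and in summed hepatocyte signal, with 147887, 146642 and 171776. The part of either in the order was not tested.

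**Figure D2:**
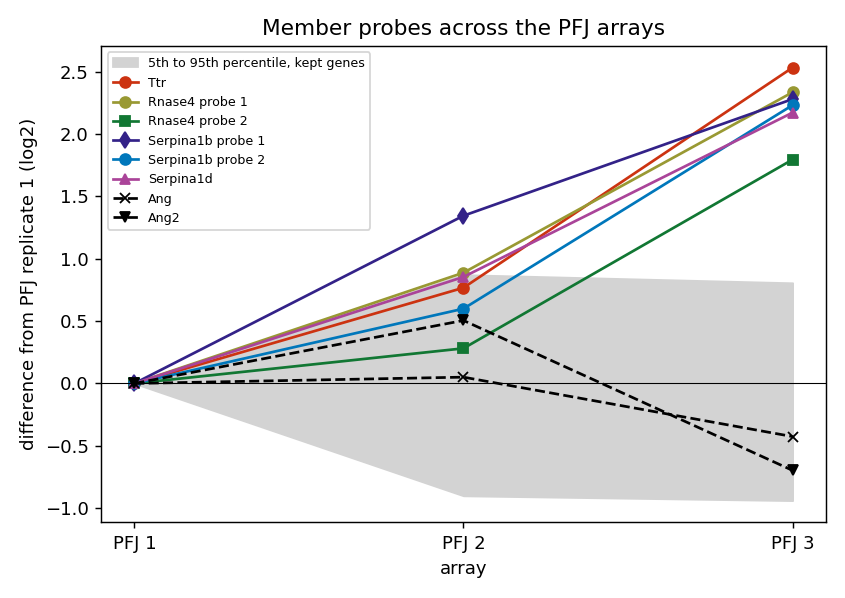
Difference of each probe from its own value on PFJ replicate 1 (log2, vertical axis) on the 3 PFJ arrays (horizontal axis). Solid lines are the 6 member probes, dashed lines are *Ang* and *Ang2*, and the grey band spans the 5th to 95th percentile of kept genes. Each member probe ends above the band on PFJ replicate 3, at 1.79 to 2.53, whereas *Ang* and *Ang2* end at -0.43 and -0.70.

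An order of this kind with at least as large a range, that is, with replicate 3 at least 1.79 above replicate 1, was shown by 12 kept genes, or 0.321% of them. The limit of 1.79 is the smallest range among the member probes detected on all PFJ arrays, so the 4 members are in this count by construction. The others were *Mup6*, *Apoa1*, *Mup2*, *Aak1*, *Lpl*, *Tshz3*, *Hes1* and *Apoc1*. *Lpl* and *Hes1* were detected on all 4 control arrays. Of the 12, 5 were detected on no control array, namely *Ttr*, *Rnase4*, *Mup6*, *Apoa1* and *Apoc1*. Detection on every PFJ array but in no control was found for 14 of 5048 kept probes, or 0.277%, and by detection on every PFJ array but neither of control replicates 1 and 2 the number was 21, or 0.416%. Both counts hold 3 member probes (*Ttr*, *Rnase4* probe 2 and *Serpina1b* probe 2). Their choice on this contrast makes that likely, so nothing is read from it. The other 11 of the 14 were probes of *Apoa1*, *Apoc1*, *Cyp27a1*, *Cyp2c67*, *Dgka*, *Mup6* and *Mup2* (another probe than the one above) and 4 probes not listed in the annotation. Of those 11, 6 had the order of the members and 5 had another.

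The kept genes whose pattern was most like that of each member were found by the root-mean-square difference over the 7 arrays, after each gene was centred on its own mean. *Apoc1* and *Apoa1*, which encode apolipoproteins of circulating lipoproteins, lay closest to *Ttr*, at 0.24 and 0.25 log2 units, followed by *Rnase4*, *Serpina1d* and *Serpina1b* at 0.51, 0.58 and 0.81. For *Serpina1b* probe 2 the closest were *Apoa1* (0.39), *Apoc1* (0.47) and *Ttr* (0.48). For *Rnase4* probe 2 they were *Apoc1* (0.40), *Ttr* (0.51), *Apoa1* (0.55), *Hsd17b10* (0.56) and *Col14a1* (0.62). *Serpina1d* and *Serpina1b* probe 1 were each other's closest, at 0.37. *Cat*, *G0s2*, *Apoc3* and *Adam23* were the next for *Serpina1b* probe 1, at 0.56 to 0.75. Over the 5 arrays without control replicates 3 and 4, *Apoa1* and *Apoc1* were still the closest to *Ttr* (0.21 and 0.24), while *Serpina1d* lay closest to *Rnase4* (0.26). All these genes share the arrays, and the likeness is a description. The members were chosen for the step between control and PFJ, which is part of this measure. Their closeness to each other is therefore partly built in, and nothing is read from it. *Apoa1* and *Apoc1*, like *Ttr*, *Rnase4* probe 2 and *Serpina1b* probe 2, were detected on no control array. The closeness of these apolipoprotein genes to those probes thus rests in part on control values at background, and nothing is read from it either.

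The other alpha-1-antitrypsin copies of the mouse were read by 4 probes, none of them kept. Probe 1 of *Serpina1a* was detected on PFJ replicates 1 and 3, with log2 values of 6.95, 6.22 and 7.24 on PFJ replicates 1 to 3 and 5.45 to 6.04 in controls. On the PFJ mean, which includes the undetected value of replicate 2, it was at least 1.389-fold higher. Against control replicates 1 and 2 it was at least 1.358-fold higher. Its order differed from that of the members, since replicate 2 was the lowest. Probe 2 of *Serpina1a* and the probe of *Serpina1c* were detected on PFJ replicate 3 alone, at 7.39 and 7.17, and had the same order as the members. *Serpina1e* was undetected on all 7 arrays, with log2 values of 4.81 to 5.41. The detection p for *Serpina1c* on PFJ replicates 1 and 2 was 0.09148 and 0.0213. Because the copies are near-identical in the mouse, a probe may bind transcripts of more than one copy, and the copy behind each signal is uncertain here.

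**Figure D3:**
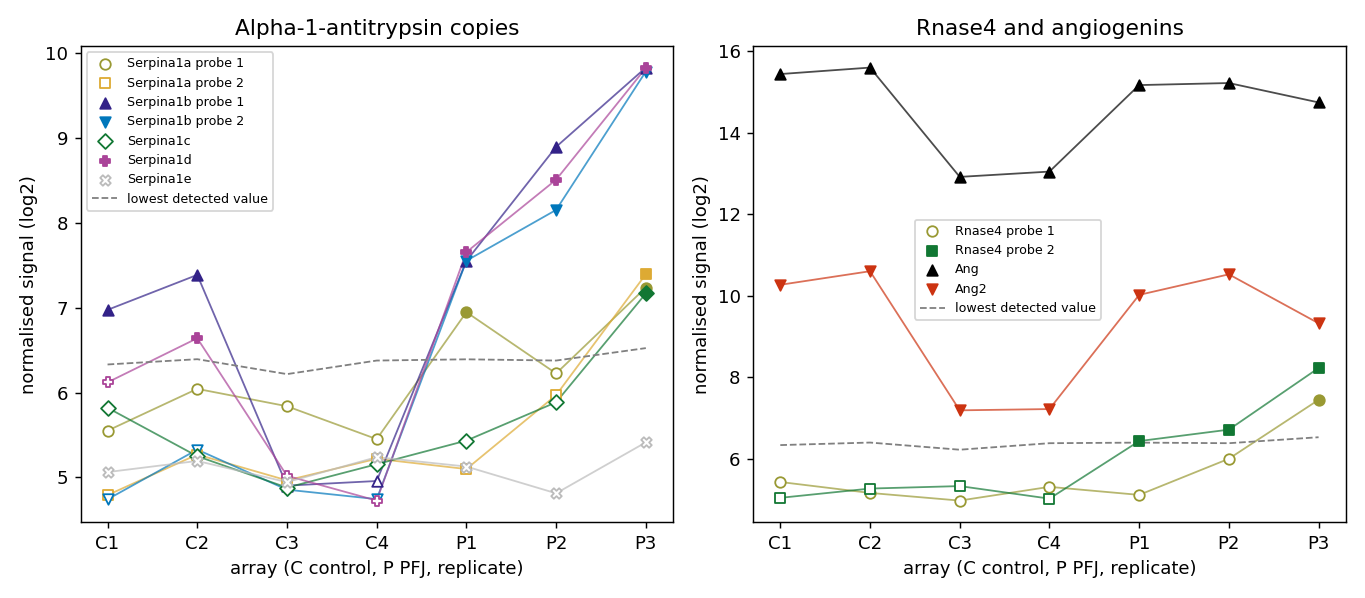
Normalised signal (log2, vertical axes) on the 7 arrays (C, control; P, PFJ). The left panel shows the 7 probes of alpha-1-antitrypsin copies and the right panel *Rnase4*, *Ang* and *Ang2*; filled symbols were detected, open symbols were not, and a key symbol has the fill of its P2 point. *Serpina1b* and *Serpina1d* are detected on all 3 PFJ arrays, *Serpina1a* probe 2 and *Serpina1c* on P3 alone and *Serpina1e* on none, and *Ang* has its lowest values on C3 and C4.

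*Ang*, the neighbour of *Rnase4*, had another pattern. On the log2 scale control replicates 1 to 4 gave 15.44, 15.60, 12.92 and 13.05, and PFJ replicates 1 to 3 gave 15.17, 15.22 and 14.74. Within the PFJ group it was thus lowest on replicate 3, where *Rnase4* was highest. Its difference was 0.79 (standard error 0.76, adjusted p = 0.626 from limma) against all controls. Against control replicates 1 and 2 it was -0.48 (standard error 0.23, adjusted p = 0.9998 from limma). *Ang2* and *Ang4*, further angiogenins, were likewise at 1.14 and 0.89 against all controls and at -0.48 for each against control replicates 1 and 2. These were the 3 kept genes of 15 on the array from a list of the RNase A family and its inhibitor, and none passed an adjusted p under 0.05. The inhibitor gene, *Rnh1*, is not among the 15 and was not analysed here.

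The partners of transthyretin gave little signal. *Rbp4* was undetected on all 7 arrays at a detection p under 0.01, with log2 values of 5.02, 5.79 and 6.20 on PFJ replicates 1 to 3 and 4.95 to 5.12 in controls. Its order across the PFJ arrays was that of the members, with detection p-values of 0.3296, 0.03008 and 0.02632. *Serpina7*, thyroxine-binding globulin, and *Alb*, albumin, which also carries thyroid hormone, were undetected on every array, between 4.56 and 4.90 and between 4.78 and 5.03. *Alb* had the order of the members too, with detection p-values of 0.3897, 0.3283 and 0.3296, and *Serpina7* had another. The order of these undetected probes comes from values at background, so nothing is read from it. Of 22 genes of thyroid hormone and retinol transport on the array, 2 were kept and neither passed the test. *Dio1*, a deiodinase that activates thyroid hormone, had 12.77, 12.03 and 12.69 with PFJ and 12.28 to 13.29 in controls. Its difference was -0.40 (standard error 0.32, adjusted p = 0.588 from limma), and -0.05 against control replicates 1 and 2. *Slc16a10*, an amino acid and thyroid hormone transporter, was at 0.05 (standard error 0.32, adjusted p = 0.944 from limma), and at -0.19 against control replicates 1 and 2.

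Over all 3734 kept genes, 0% passed an adjusted p under 0.05 from limma (lowest adjusted p = 0.0524), and 2.17% were higher and 2.6% lower with PFJ at an unadjusted p under 0.05. These shares correspond to 81 and 97 genes. Without 1 array they ranged from 28 (without control replicate 3) to 306 (without control replicate 1) for higher genes, and from 30 (without PFJ replicate 3) to 244 (without control replicate 1) for lower genes. With the replicate number as a block, 33 were higher and 32 lower. Against control replicates 1 and 2, with 3543 genes kept, 1.3% were higher and 1.52% lower, and 0% passed (lowest adjusted p = 0.391 from limma).

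None of the kept serpins outside the alpha-1-antitrypsin copies passed the adjusted threshold from limma, nor did any other kept gene. On the whole array, 3734 of 16110 symbols were kept. Of 12 genes of clade A other than the members, among them the 3 alpha-1-antitrypsin copies above, only *Serpina11* was kept. It had 12.66, 9.15, 5.14 and 4.87 on control replicates 1 to 4 and 12.00, 8.96 and 11.46 on PFJ replicates 1 to 3. Its difference of 2.85 against all controls became -0.10 against control replicates 1 and 2. Of 23 serpins of other clades on the array, 5 were kept, and 0 of them differed at an unadjusted p under 0.05 in either direction. Their median difference was 1.69 against all controls and 0.01 against control replicates 1 and 2, where the medians of all kept genes were 0.03 and -0.01. Among them, *Serpinc1*, which encodes antithrombin, was at 1.51 and 0.24, and *Serpind1*, heparin cofactor II, at 4.03 and 0.01. *Serpinb6a*, an intracellular serpin, was at -1.09 and -0.09. *Klkb1*, *F2* and *Plg*, plasma serine proteases, were the kept genes of 11 on the array from a list of proteases that alpha-1-antitrypsin can inhibit, with medians of 3.71 and -0.06, and 0 of them passed the adjusted threshold.

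Of 12 kept acute phase genes, which the liver makes more or less of in inflammation, all 12 had a positive difference against all controls and 3 of 12 against control replicates 1 and 2, and the respective medians were 2.49 and -0.08. Of all kept genes, 1953 of 3734 and 1672 of 3543 were positive. In neither comparison did any of them reach the adjusted threshold or exceed controls at an unadjusted p. *Itih4*, *Ahsg* and *Hpx*, which encode plasma glycoproteins, were at 4.44, 3.83 and 2.77 against all controls and at 0.10, -0.01 and 0.00 against control replicates 1 and 2. On those controls and on the PFJ arrays these probes lay at 15.76 to 16.11, at or close to the highest value of the scale (16.11), which limits what either difference can show. *Lcn2*, an iron-binding acute phase protein, was the only one lower at an unadjusted p against control replicates 1 and 2, at -1.37 (standard error 0.39, adjusted p = 0.9998 from limma), and is named after its value was seen. In humans, alpha-1-antitrypsin is itself an acute phase protein and transthyretin falls in inflammation. How either responds in the NR was not tested.

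Of 12 kept genes of hepatocyte transcription factors, several of which bind the *Ttr* and *Serpina1* promoters, none passed the test. Their median was 0.89 against all controls and -0.03 against control replicates 1 and 2. *Cebpa* was at 1.71 and 0.30, *Atf5* at 0.93 and 0.27, and *Dbp* at 0.83 and 0.16. Of 9 kept genes of the secretory pathway, which fold and export plasma proteins, none passed the adjusted threshold and 1 was higher at an unadjusted p in each comparison, where 2.17% and 1.3% of all kept genes were. This was *Rpn2*, a subunit of the enzyme that attaches sugars to new proteins, with log2 values of 6.88, 7.46 and 7.27 in the PFJ group and 6.67, 5.98, 5.81 and 6.24 in the 4 controls. Its difference was 1.03 (standard error 0.27, adjusted p = 0.561 from limma), and 0.88 (standard error 0.30, adjusted p = 0.9998 from limma) against control replicates 1 and 2. *Syvn1* and *Edem1*, which act in the disposal of misfolded proteins such as alpha-1-antitrypsin variants, were at 1.11 and 1.02 against all controls and at 0.29 and 0.21 against control replicates 1 and 2. The median of the list was 0.55 and -0.02.

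**Figure D4:**
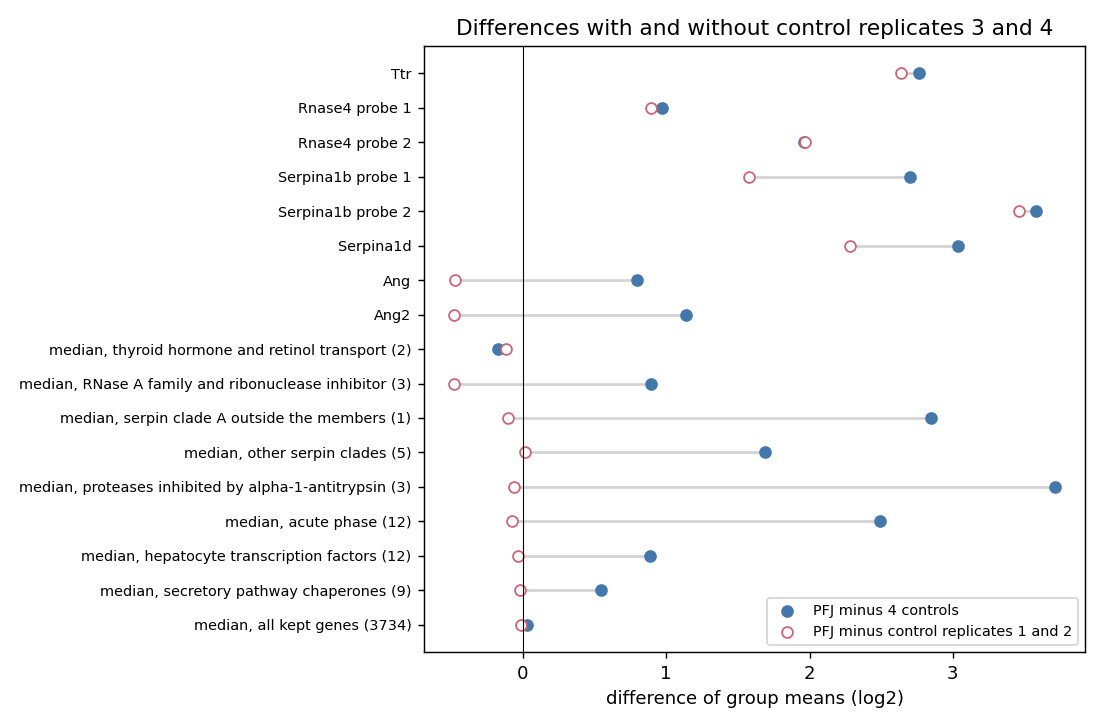
Difference of group means (log2, horizontal axis) of the 6 member probes, of *Ang* and *Ang2*, and of the medians of 8 gene lists and all kept genes (number kept in parentheses). Filled points compare PFJ with all 4 controls and open points with control replicates 1 and 2. The member probes were chosen for brightness with PFJ, and all but *Serpina1b* probe 1 and *Serpina1d* have control values wholly at background, so their points lie at differences of normalised values and not at folds, while the list medians run from -0.48 to 0.01 against control replicates 1 and 2.

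*Ttr* is made also by choroid plexus and pancreatic islets, so markers of these tissues were read. Of 5 choroid plexus markers on the array, 0 were detected in the PFJ group or in control replicates 1 and 2, with summed signals of 145.0 to 160.9, and 1 on control replicates 3 and 4, with 15047 and 10022. *Kl*, *Clic6*, *Otx2* and *Sostdc1* were undetected on every array. The signal thus rests on 1 marker, on the arrays with high kidney tubule signal, and no choroid plexus is read from it. All 5 islet markers on the array and all 5 of pancreatic acinar cells were undetected on every array, with summed signals of 152.0 to 183.1 and 157.4 to 193.4. The 10 leukocyte markers, among them *Elane*, the elastase that alpha-1-antitrypsin inhibits, were undetected as well, with summed signals of 317.2 to 423.1. Of 4 erythroid markers, 1 to 3 were detected on each array, with summed signals of 2322 to 22534 in controls and 14783 to 23764 with PFJ, and their part in the results was not tested.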

How the data were processed

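The array was the MouseRef-8 BeadChip of Illumina, version 2, and the total RNA put on it was labelled as liver. The authors' software (GenomeStudio 2011.1 in the submitters' processing notes) gave the deposited mean bead intensity and the deposited detection p-value of each probe on each array, without normalisation. The second deposited table holds intensities on a linear scale after background subtraction and rank invariant normalisation by the authors, with column medians of 6.16 to 8.97 and values below 0. Background correction and quantile normalisation of the intensities were done with neqc of limma 3.58.1 in R 4.3.3, with an offset of 16, which gives log2 values.

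A probe was kept when detected at p under 0.01 on at least 3 arrays, and each symbol was represented by its kept probe of highest mean, which left 3734 genes. Of 25697 probes, 23141 carried 1 symbol, 0 several and 2556 none in the annotation. Groups were compared with lmFit and eBayes of limma, two-sided, with Benjamini-Hochberg adjustment over all kept genes. The procedure was run on simulated data whose spread was taken without control replicates 3 and 4. That run cannot show how the fit performs with the spread of all arrays. The error model used in the study could not be run here.

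Same-numbered control and PFJ replicates deviated together (correlations of 0.108, 0.248 and 0.138 over genes for replicates 1, 2 and 3). The labels give no more than the number, so the main fits treated the arrays as unpaired. A fit with the replicate as a block, in which control replicate 4 carries no weight, was an alternative. Other alternatives were equal array medians, an offset of 50, no background correction, the values of the authors with a floor of 10, other detection filters, every kept probe on its own, and leaving out arrays.

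Members and lists were chosen with earlier results of these data known. Named genes are the member probes, *Rbp4*, *Alb*, *Serpina7* and *Ang*, the 3 kept genes of lowest p of each list, the 5 nearest genes of each member probe detected on all PFJ arrays, and genes detected with PFJ alone; others were named after their values were seen. Sequences of the probes and proteins were not used here. How precise a value can be is set by the number of arrays.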

Additional observations from a re-analysis of the deposited data

Results flagged for a closer look

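In the group of 4 control arrays, the gap between the farthest array and its nearest neighbour was compared with the whole range of the group. Their ratio exceeded Dixon's critical value for 4 values for 2 of 34 probes examined, and chance alone gives about 1 in 20. For *Ttr* the ratio was 0.884, with control replicate 3 the lowest at 4.89 against 5.36 to 5.42 on the others. For *Alb* it was 0.849, with control replicate 2 the highest at 4.97 against 4.78 to 4.81. Both probes were undetected on all 4 control arrays, so these gaps lie within values at background.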

How the results depend on the processing

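No difference of a member probe changed its sign under any of the alternatives run. The members were chosen for brightness with PFJ on these same arrays, which makes a kept sign likely, so nothing is read from it. Of 78 differences, 71 moved by less than the spread between replicates, which includes the gap between control replicates 1 and 2 and control replicates 3 and 4. For *Serpina1b* probe 1 the fall from 2.70 to 1.58 without control replicates 3 and 4 lay within that spread. The replicate block gave the same member differences as leaving out control replicate 4. All are differences of normalised values and not folds, since the control values of *Ttr*, *Rnase4* and *Serpina1b* probe 2, and most of those of *Serpina1d*, lay at background. Without background correction the differences were 1.37 for *Ttr*, 0.84 for *Rnase4* probe 2, 1.87 for *Serpina1b* probe 2 and 1.69 for *Serpina1d*. With an offset of 50 it was 2.64 for *Serpina1b* probe 2. With the values of the authors, floored at 10, it was 3.03 for *Rnase4* probe 2 and 4.71 for *Serpina1b* probe 2. These settings differ in the background that is left under dim signals. With 1 array left out the differences were 2.05 to 3.31 for *Ttr*, 0.34 to 1.5 and 1.41 to 2.31 for *Rnase4* probes 1 and 2, 2.17 to 3.31 and 2.94 to 4.05 for *Serpina1b* probes 1 and 2, and 2.46 to 3.54 for *Serpina1d*, in each case lowest without PFJ replicate 3 and highest without PFJ replicate 1. All 6 probes kept the order of the PFJ arrays under each of the 4 other scalings. An offset of 50 and no background correction keep the rank of each probe within its array, so under them the order could not change. It could change with equal medians, where 6.16% of kept genes had that order, and with the values of the authors, where 12.5% did. The difference of PFJ replicate 3 from replicate 1 for *Rnase4* probe 1 was 0.98 without background correction and 3.66 with the values of the authors. At a detection p under 0.05, *Rnase4* probe 1 was detected on 2 PFJ arrays and *Serpina1d* on 2 control arrays.

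The count of genes passing the adjusted threshold from limma was 2 with equal medians and 0 to 1 with 1 array left out (1 without PFJ replicate 1 and 1 without PFJ replicate 2), and 0 of the list genes passed under any setting. At an unadjusted p under 0.05, the higher and lower genes numbered 30 and 159 with equal medians, which shifted the median of all genes to -0.18 and left 34.4% of genes positive in place of 52.3%, so that changes there are read relative to that shift. Higher genes were 44 with the values of the authors, and 136 at a detection p under 0.05. Higher and lower genes were 46 and 54 without control replicates 3 and 4, 33 and 32 with the replicate block, 52 and 60 with detection on all 7 arrays, and 445 and 356 with no filter. With 1 array left out they ranged from 28 to 306 and from 30 to 244. Without control replicates 1, 2, 3 and 4 and PFJ replicates 1 and 3 they were 306, 264, 28, 37, 52 and 29 higher and 244, 224, 33, 39, 63 and 30 lower. The replicate block changed no other call. The cause of these shifts was not tested. The low signal of the member probes over background limits the precision of their folds.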
